A study of Mus musculus with 12 samples.

Results

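The ratio of transcripts between *Prdm6* del/del and wild type yolk sacs was examined for cathepsins, cystatins and serpins. The members were all probes whose annotated symbol was Cts followed by a letter or digit, began with Serpin, or was Cst followed by a letter or digit, without the Cstf genes. This rule took 46 of 20794 probes, for 40 of 9030 annotated genes, of which 14 probes were for cathepsins, 8 for cystatins and 24 for serpins. Of these, 45 probes for 39 genes had a value on at least 8 of 12 arrays and were tested. The remaining probe, *Cstdc6* (2675), had 7 values, between -1.87 and 1.19 on the log2 scale, and was left out.

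RNA from 6 homozygous yolk sacs at E10.5 (*Prdm6* -/- in the labels, here *Prdm6* del/del, a germ line deletion of the *loxP*-flanked exon in all cells) was hybridized to 12 cDNA microarrays with 2 channels. On every array the del/del sample was set against the same pool, made from 6 wild type (*Prdm6* +/+) samples, and the dyes were exchanged on 6 arrays. Every value was read as a log2 ratio of del/del over wild type, so that a value below 0 is lower in del/del yolk sacs. The pool is a single control sample, so the spread among wild type yolk sacs did not enter any test, and although each yolk sac had a dye-swap pair, the labels do not tie arrays to yolk sacs, so p-values over 12 arrays are too small and the intervals too narrow. The labels name the dyes as del/del in Cy5 on 5 arrays and in Cy3 on 5 arrays, and give the same dye for both channels on 2 arrays (replicates 8 and 9). The files state neither the direction nor the base of the ratio. The direction was read from genes that the study describes: *Sfrp1* averaged 1.04 with del/del in Cy5 and 0.99 with del/del in Cy3, *Map1b* averaged 0.64 over all arrays, both were above 0 on 12 of 12, and *Mmp2* averaged -0.47 and was below 0 on 12 of 12. *Spon1*, lower in the study, averaged -1.12 for probe 20037, below 0 on 12 of 12. Its probes 16613 and 16683 averaged -0.10 and 0.02 and did not show the change. Since the files hold ratios alone, no level of any gene and no marker could be used to check the tissue, and *Prdm6* itself was not analysed here. Whole yolk sacs were used, so fewer cells of a type and less RNA per cell cannot be told apart.

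Cathepsins are the proteases of the lysosome. Most are cysteine proteases (cathepsins B, F, H, K, L, S, W and Z), cathepsins D and E are aspartic proteases, and cathepsin A is a serine carboxypeptidase that also protects other lysosomal enzymes. Cystatins are tight-binding inhibitors of the cysteine cathepsins, either secreted (cystatin C, encoded by *Cst3*) or cytosolic (cystatin B). Serpins trap their target proteases by a change of shape after the protease has cut an exposed loop. Clade A holds plasma inhibitors such as alpha-1-antitrypsin, clade B the intracellular serpins, and single-gene clades hold antithrombin, heparin cofactor II, C1 inhibitor and the collagen chaperone HSP47, which inhibits no protease. In the rodent yolk sac, the visceral endoderm takes up proteins and digests them in lysosomes for the embryo, and it secretes plasma proteins, alpha-1-antitrypsin among them, before the liver does.

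None of the 45 probes differed between del/del and wild type by the study's thresholds (limma, Benjamini-Hochberg adjusted p under 0.05 over 20516 probes and a change over 1.3-fold, which is 0.379 on the log2 scale). Over all probes tested, 0.907% were lower and 0.166% were higher in del/del yolk sacs. At an unadjusted limma p under 0.05, 5 of the 45 probes were lower (11.1%, against 6.41% of all probes) and 1 was higher (2.22%, against 4.64% of all probes). The 5 were *Ctsf* 932, *Serpina1d*, *Serpina1e*, *Serpinc1* and *Serpinh1* 2066 and the higher one was *Ctsa*. Their p in the exact two-sided sign-flip permutation test over 12 arrays lay between 0.00195 and 0.0298, and no other member was under 0.05 in that test. It used the same arrays as the limma fit and was not run over all probes. Over the 6 averages of consecutive arrays, 3 members were under 0.05 in the sign-flip test: *Serpina1d*, *Serpina1e* and *Cstb*. There *Ctsf* 932 and *Serpinh1* 2066 had p = 0.0625, *Ctsa* 0.0938 and *Serpinc1* 0.125. The mean log2 ratios ran between -0.40 and 0.52 with a median of -0.04, against a median of -0.00 over all probes, and 28 means were below 0 (62.2%, against 51.1% of all probes). No probe of the 45 had the same sign on every array, but the share of all probes that did was not counted, so this does not set the members apart. The spread between arrays was of the usual size for these arrays, with a median SD of 0.40, against 0.41 over all probes.

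The 95% intervals of the means give how large a change the arrays could have missed, but they are too narrow, as stated above. A missed change may thus be larger than they show. The interval lay wholly within 1.3-fold in either direction for 26 of the 45 probes (57.8%, against 61.4% of all probes), and for 28 when consecutive arrays were averaged as presumed dye-swap pairs. *Ctse* was within 1.3-fold over 12 arrays but not with these averages (-0.42 to 0.12). For the 19 probes whose interval over 12 arrays reached past 1.3-fold, the missed threshold does not show that these genes were alike in both genotypes.

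**Figure D1:**
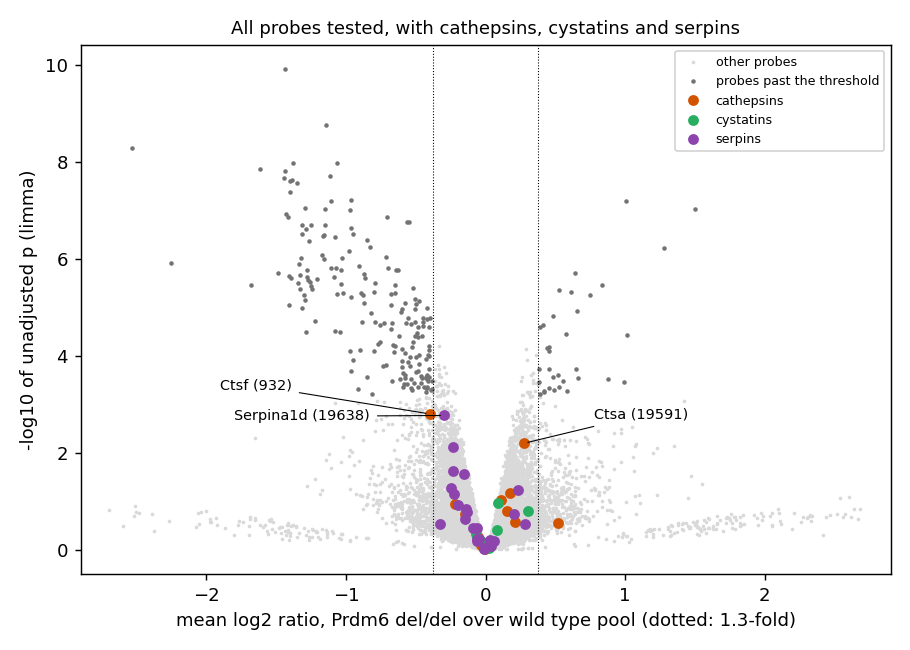
Mean log2 ratio of *Prdm6* del/del over wild type (horizontal) against -log10 of the unadjusted limma p (vertical), 1 point per probe, with cathepsins in orange, cystatins in green and serpins in purple. The dark grey probes past the threshold lie above all 45 coloured points, and 30 probes beyond 2.8 in size, 0 of them past the threshold, are not drawn.

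The promoters of 5 members are shown here because the first 3 belong to the alpha-1-antitrypsin copies, which all had means below 0, and the other 2 to the cathepsins with the smallest adjusted p. The sequences are those that RefSeq gives upstream of the gene start in GRCm38.p6, 5′ to 3′ on the strand of the gene, and 29 of the 40 genes had one. In the alpha-1-antitrypsin promoters the capitals mark GTTAAT, a core of the site for the hepatocyte nuclear factor HNF1.
*Serpina1b*, chr12:103738190-103738349, minus strand: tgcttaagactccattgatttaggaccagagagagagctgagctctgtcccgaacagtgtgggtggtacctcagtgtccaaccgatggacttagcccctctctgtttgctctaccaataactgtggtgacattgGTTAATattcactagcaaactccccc
*Serpina1d*, chr12:103773634-103773793, minus strand: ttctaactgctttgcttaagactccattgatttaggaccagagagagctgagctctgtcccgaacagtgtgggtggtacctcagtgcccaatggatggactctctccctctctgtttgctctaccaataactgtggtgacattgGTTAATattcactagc
*Serpina1e*, chr12:103956898-103957057, minus strand: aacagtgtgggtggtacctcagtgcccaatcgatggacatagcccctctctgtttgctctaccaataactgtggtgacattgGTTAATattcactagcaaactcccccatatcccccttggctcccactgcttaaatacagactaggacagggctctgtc
In the cathepsin promoters the capitals mark CACGTG, the E-box within the element that the lysosomal regulator TFEB binds.
*Ctsf*, chr19:4854915-4855164, plus strand: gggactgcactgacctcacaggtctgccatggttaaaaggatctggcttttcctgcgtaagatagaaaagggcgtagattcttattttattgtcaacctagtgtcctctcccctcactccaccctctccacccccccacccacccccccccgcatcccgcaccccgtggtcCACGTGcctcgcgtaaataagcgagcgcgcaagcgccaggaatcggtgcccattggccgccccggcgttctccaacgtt
*Ctsa*, chr2:164833523-164833772, plus strand: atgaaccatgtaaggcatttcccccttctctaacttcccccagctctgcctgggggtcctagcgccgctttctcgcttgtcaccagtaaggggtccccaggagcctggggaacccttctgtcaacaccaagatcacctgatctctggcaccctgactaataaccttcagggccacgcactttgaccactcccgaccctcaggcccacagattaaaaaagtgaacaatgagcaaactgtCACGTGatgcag
Within 250 bases before the start and on both strands (ATTAAC is the reverse complement of GTTAAT, and the E-box is its own), CACGTG was found for 4 of 7 cathepsin genes (57.1%: *Ctsa*, *Ctsd*, *Ctsf* and *Ctsl*), 0 of 5 cystatin genes and 0 of 17 serpin genes, against 6.86% of 27025 genes. GTTAAT was found for 4 of 17 serpin genes (23.5%: *Serpina1b*, *Serpina1d*, *Serpina1e* and *Serpinb8*), 0 of 7 cathepsin and 0 of 5 cystatin genes, against 7.49% of all genes. Aligned on the match, the *Serpina1b* and *Serpina1e* promoters shared 96.5% of 86 bases, *Serpina1d* and *Serpina1e* 92.1% of 76 bases, and *Serpina1b* and *Serpina1d* 90.8% of 76 bases. These matches describe letters and not binding, and the copies count as 1 origin rather than as 3 independent genes.

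Among the 10 probes of cysteine cathepsins, means lay between -0.40 and 0.52 with a median of -0.02, 7 below and 3 above 0. The smallest adjusted p of all members belonged to *Ctsf*, a lysosomal cysteine protease with an unusually long propeptide. Its probe 932 had a lowest value of -1.06, a median of -0.32 and a highest value of 0.37. It was below 0 on 11 of 12 arrays, with a mean of -0.40 (SD 0.38, 95% interval -0.62 to -0.19, limma adjusted p = 0.0914). Without replicate 12, its single array above 0, the mean was -0.46 (adjusted p = 0.0364), which is past the threshold, and with consecutive arrays averaged the adjusted p was 0.233. The second *Ctsf* probe (17584) did not follow it. It had 10 values, between -1.04 and 4.24 with a median of 0.12, 7 of them above 0, and a mean of 0.52 (SD 1.46, adjusted p = 0.720) that was 0.15 without replicate 5. With both probes averaged, *Ctsf* had a mean of -0.01 (adjusted p = 0.994).

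The cathepsins that carry most of the lysosomal protein digestion in many cells lay close to 0. *Ctsb*, an endopeptidase that also removes dipeptides from the ends of proteins, had means of -0.05 (95% interval -0.23 to 0.14, probe 4243) and -0.01 (-0.21 to 0.19, probe 15386). *Ctsl*, a strong endopeptidase, ran between -0.46 and 0.48 with a median of -0.18 and a mean of -0.06 (-0.25 to 0.14). For these 3 probes the intervals lay within 1.3-fold. *Ctsh*, an aminopeptidase, averaged -0.04 (-0.30 to 0.23) and *Ctss*, the antigen-processing cathepsin of macrophages and dendritic cells, -0.01 (-0.16 to 0.14), again within 1.3-fold. *Ctsk*, the collagen-degrading enzyme of osteoclasts, was below 0 on 9 of 12 arrays with a lowest value of -1.39, a median of -0.22 and a highest value of 0.50, and its mean of -0.22 (-0.50 to 0.06, adjusted p = 0.570) did not pass. *Ctsz*, a carboxypeptidase, averaged 0.17 (-0.01 to 0.36), and *Ctsw*, expressed in cytotoxic lymphocytes, 0.21 (-0.18 to 0.60) with a highest value of 1.81 and a median of 0.00.

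Of the 4 probes of aspartic and serine cathepsins, 3 means were above 0, with a median of 0.13. *Ctsa* (19591) had the highest mean among them, with a lowest value of -0.18, a median of 0.33 and a highest value of 0.84. It was above 0 on 9 of 12 arrays and its mean was 0.28 (SD 0.30, 95% interval 0.09 to 0.46, adjusted p = 0.188), with adjusted p values between 0.0585 (without replicate 4) and 0.795 (Cy3 arrays turned in sign) over 30 alternatives. *Ctsd*, the main aspartic protease of the lysosome, averaged 0.15 (-0.07 to 0.37, probe 11097) and 0.11 (-0.02 to 0.24, probe 16223), both within 1.3-fold and above 0 on 7 of 12 arrays each. The probes moved in opposite ways with the dye of the del/del sample. Probe 11097 averaged -0.19 in Cy5 and 0.36 in Cy3, and probe 16223 averaged 0.29 in Cy5 and -0.08 in Cy3. *Ctse*, an endosomal aspartic protease, was below 0 on 8 of 12 arrays with a mean of -0.15 (-0.38 to 0.08).

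The 7 cystatin probes had a median of 0.02 and 5 means above 0. *Cst3*, the secreted cystatin C, ran between -0.71 and 0.67 with a median of 0.13 and a mean of 0.08 (95% interval -0.12 to 0.28). *Cstb*, the cytosolic cystatin B, had the smallest SD of all members, 0.16, with values between -0.09 and 0.36, and a mean of 0.09 (-0.02 to 0.21). Averaged over consecutive arrays it was above 0 in all 6 averages (exact two-sided sign-flip permutation p = 0.0312, the smallest that 6 values allow), at an adjusted p of 0.601. *Cst6*, a cystatin of skin that also inhibits the asparaginyl protease legumain, varied between -0.86 and 1.60 with a mean of 0.30 (-0.13 to 0.74), so its change was poorly determined. The other 4, *Cst7*, *Cst9*, *Cst13* and *Cstl1*, had means between -0.07 and 0.02.

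**Figure D2:**
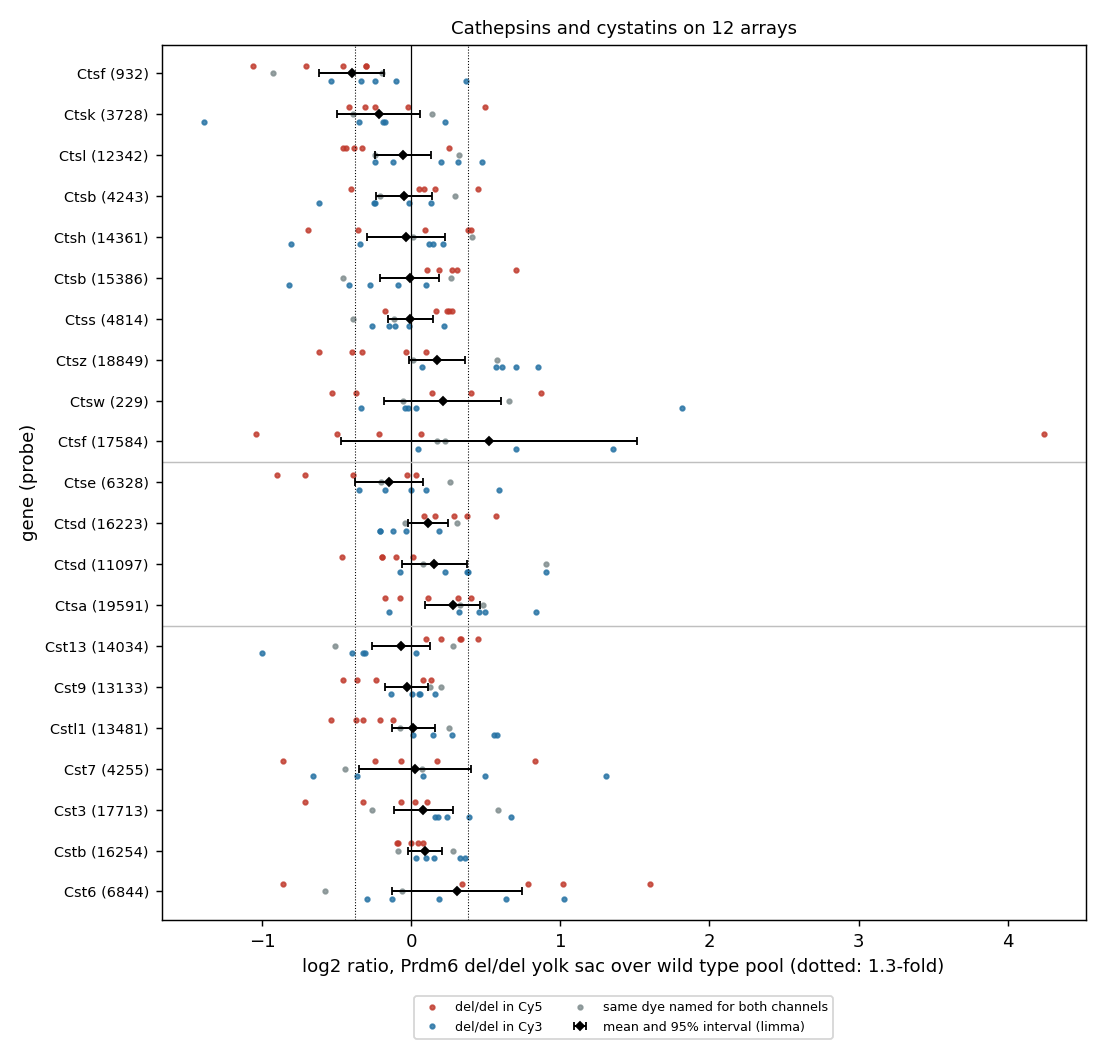
Log2 ratio of *Prdm6* del/del over wild type on each array for cathepsin and cystatin probes, coloured by the dye of the del/del sample, with the mean and the limma 95% interval in black and 1.3-fold as dotted lines. Probes are ordered by mean within cysteine cathepsins, other cathepsins and cystatins, and the value of 4.24 for *Ctsf* 17584 stands far from the rest of its row.

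Of the 24 serpin probes, 18 means were below 0 and 6 above, with a median of -0.08. The 8 clade A probes had a median of -0.06, and the 3 alpha-1-antitrypsin copies were its lowest members. *Serpina1d* (19638) had a lowest value of -0.63, a median of -0.33 and a highest value of 0.15. It was below 0 on 11 of 12 arrays with a mean of -0.30 (SD 0.23, 95% interval -0.46 to -0.14, limma adjusted p = 0.0952), and at -0.27 and -0.24 it was the same in Cy3 and Cy5 to within 0.03. *Serpina1e* (19692) ran between -0.51 and 0.26 with a median of -0.27, was below 0 on 10 of 12 arrays and averaged -0.23 (SD 0.22, adjusted p = 0.204). *Serpina1b* (7250) ran between -0.89 and 0.81 with a median of -0.26, was below 0 on 9 of 12 and averaged -0.20 (SD 0.45, adjusted p = 0.576). All 3 were below 0 on 8 of 12 arrays and none was below 0 on 1 array. Both *Serpina1d* and *Serpina1e* were below 0 in all 6 averages of consecutive arrays (exact two-sided sign-flip permutation p = 0.0312 each, the smallest possible). The limma adjusted p on these averages was 0.192 for *Serpina1d* and 0.307 for *Serpina1e*. Without replicate 11, its single array above 0, *Serpina1d* reached an adjusted p of 0.0384 at a mean of -0.34, which is under 1.3-fold. Over 30 settings its adjusted p ran between 0.0384 and 0.642. The 3 genes are closely related copies, and how far cDNA of one binds the probes of the others was not tested, so the 3 values may not be separate measurements.

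The remaining clade A serpins had no common direction. *Serpina6*, the corticosteroid-binding globulin of plasma, ran between -0.72 and 1.03 and averaged 0.20 (95% interval -0.11 to 0.51). *Serpina12*, the adipokine vaspin, was above 0 on 9 of 12 arrays with a median of 0.25 and a mean of 0.24 (-0.01 to 0.48, adjusted p = 0.472). *Serpina5*, *Serpina10* and *Serpina16* averaged between -0.06 and -0.01.

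Antithrombin, heparin cofactor II, the antiplasmin, pigment epithelium-derived factor and C1 inhibitor (clades C, D, F and G) all had means below 0, at a median of -0.09, and 0 of 5 passed. *Serpinc1*, antithrombin, the main plasma inhibitor of thrombin and factor Xa, ran between -0.64 and 0.34 with a median of -0.28. It was below 0 on 9 of 12 arrays with a mean of -0.23 (SD 0.30, 95% interval -0.43 to -0.04, adjusted p = 0.341), and lower in both orientations, at -0.34 in Cy3 and -0.22 in Cy5. *Serpinf1*, pigment epithelium-derived factor, an inhibitor of angiogenesis that does not inhibit proteases, ran between -0.92 and 0.43 with a median of -0.25 and was below 0 on 8 of 12 arrays. Its mean was -0.25 (-0.50 to 0.00, adjusted p = 0.456). *Serping1*, the C1 inhibitor of complement, averaged -0.09 (-0.29 to 0.11), *Serpind1*, heparin cofactor II, -0.06 (-0.30 to 0.18), and *Serpinf2*, the antiplasmin, -0.04 (-0.22 to 0.13), all 3 within 1.3-fold.

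The 8 clade B probes had a median of -0.07. *Serpinb8*, an intracellular serpin that inhibits furin in human, had the largest mean below 0 of the serpins, -0.33 over 11 arrays (SD 1.12), but a single value of -3.48 on replicate 7 set it: the median was -0.18 and the mean -0.06 without that array. *Serpinb5* (maspin) was as wide, between -1.67 and 2.31 with a mean of 0.28 (95% interval -0.28 to 0.85). *Serpinb1a*, which inhibits the elastase and cathepsin G of neutrophils, averaged -0.13 (-0.33 to 0.06), *Serpinb12* -0.14 (-0.39 to 0.10), and the probes of *Serpinb2*, an inhibitor of urokinase, 0.03 and 0.06.

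*Serpinh1*, the collagen chaperone HSP47, was represented by a pair of probes that both averaged below 0. Probe 2066 ran between -0.50 and 0.28 with a median of -0.20, was below 0 on 9 of 12 arrays and averaged -0.15 (95% interval -0.29 to -0.02, adjusted p = 0.360). Probe 3823 averaged -0.14 (-0.34 to 0.05, adjusted p = 0.606) and was below 0 on 6 of 12 arrays. Both intervals lay within 1.3-fold. *Serpini1*, the neural serpin that inhibits tissue plasminogen activator, averaged 0.04 (-0.33 to 0.41) with values between -0.99 and 1.26.

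**Figure D3:**
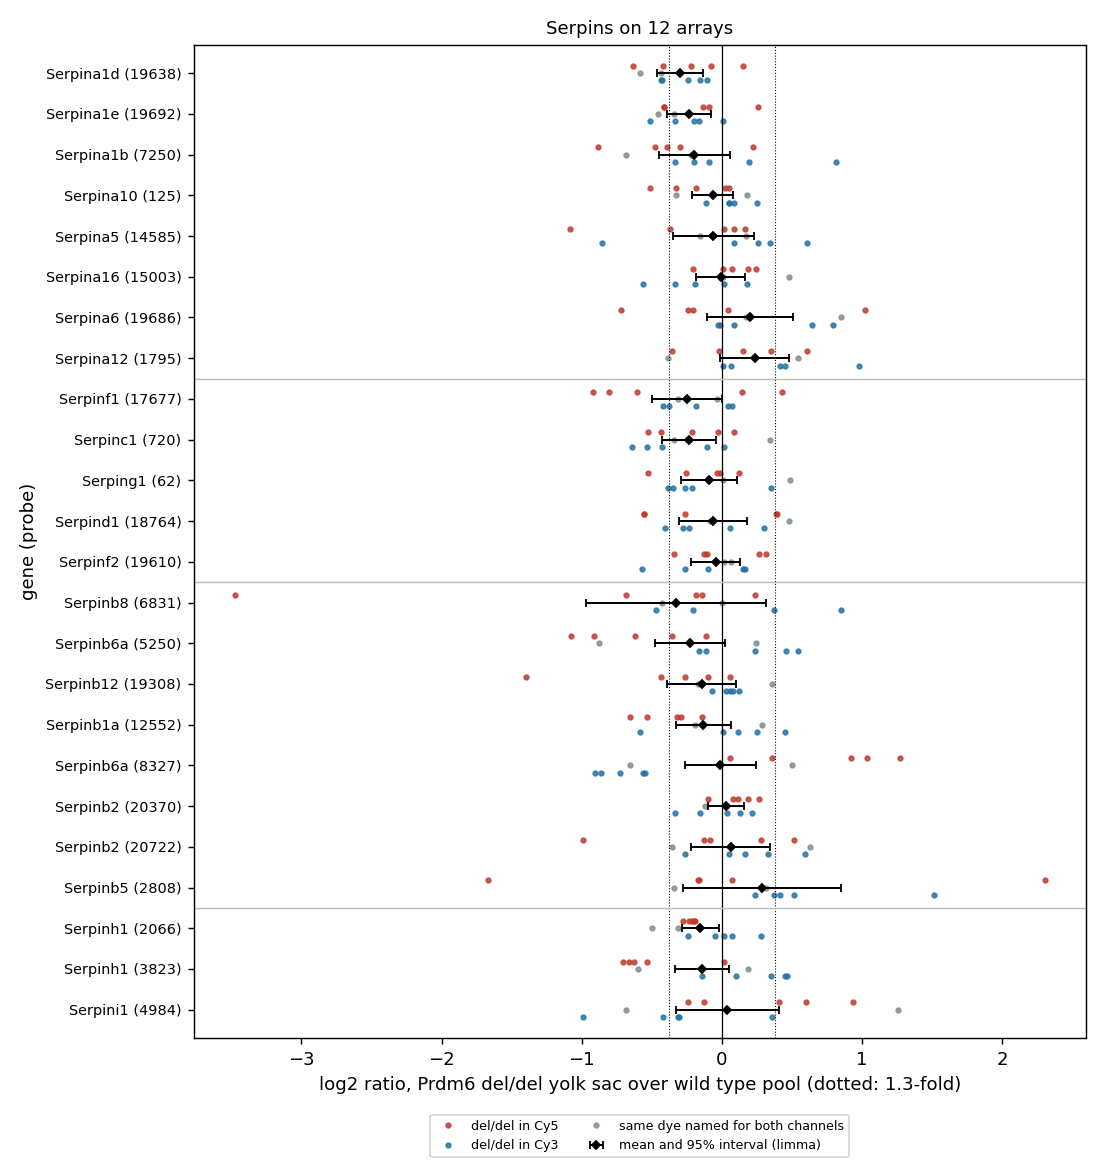
Log2 ratio of *Prdm6* del/del over wild type on each array for serpin probes, in the format of the plot of cathepsins and cystatins, grouped from top to bottom as clade A, clades C, D, F and G, clade B, and clades H and I. The *Serpina1* copies lie mostly below 0, and *Serpinb8* has 1 value of -3.48.

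The values of single probes moved with the dye, at shares like those of all probes or below. For 30 of the 45 probes (66.7%, against 65.8% of all probes) the mean had opposite signs in the orientations, 5 arrays for Cy5-labelled and 5 for Cy3-labelled del/del RNA, 9 probes were lower in both and 6 were higher in both. The orientations differed by over 0.5 on the log2 scale for 12 probes (26.7%, against 35.4% of all probes). *Serpinb6a*, an intracellular inhibitor of serine proteases, was the extreme case: probe 8327 averaged 0.73 in Cy5 and -0.72 in Cy3, and its mean over all arrays was -0.01. The other *Serpinb6a* probe (5250) went the opposite way with the dye, at -0.61 in Cy5 and 0.19 in Cy3. It ran between -1.07 and 0.55 with a median of -0.14, was below 0 on 8 of 12 arrays and averaged -0.23 (SD 0.55, 95% interval -0.48 to 0.02, adjusted p = 0.493). *Ctsz* averaged -0.26 in Cy5 and 0.56 in Cy3. *Ctsf* 932 was below 0 in both, at -0.57 in Cy5 and -0.17 in Cy3. Whether the dye effects are of the labelling or of the spot was not tested. Over all probes, arrays of opposite orientation correlated at a median r of -0.08 (-0.26 to 0.06), and those of the same orientation at 0.18, across probes that are not independent.

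**Figure D4:**
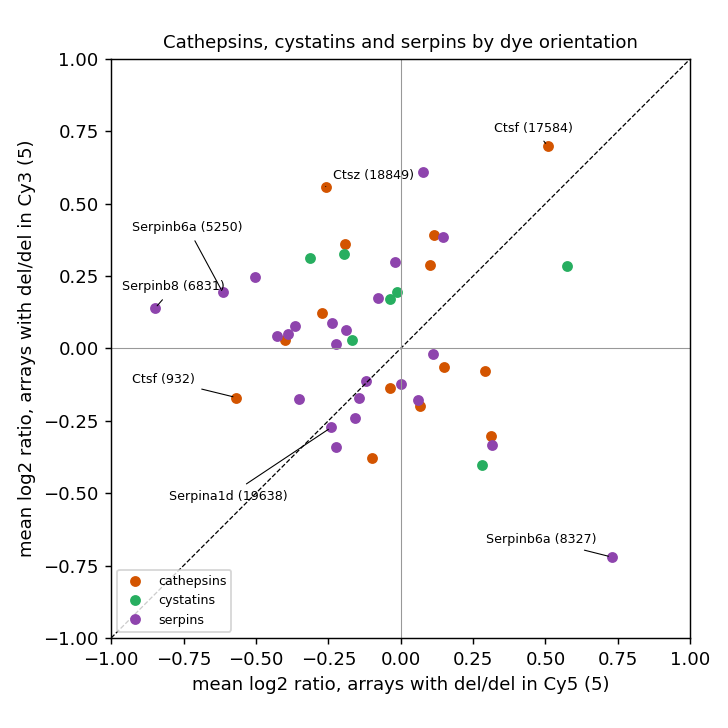
Mean log2 ratio of *Prdm6* del/del over wild type for Cy5-labelled del/del RNA on 5 arrays (horizontal) and for Cy3-labelled del/del RNA on 5 others (vertical), 1 point per probe and the dashed line marking equal values. 30 of 45 points lie in the quadrants where the orientations have opposite signs, with *Serpinb6a* 8327 at 0.73 and -0.72.

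Where a gene had a pair of probes, they often differed between arrays, and each difference was put to the exact sign-flip permutation test (two-sided). The *Ctsb* probes had the same sign on 11 of 12 arrays (mean difference -0.04, probe 4243 minus 15386, p = 0.585). Both moved the same way with the dye, at 0.07 in Cy5 and -0.20 in Cy3 for 4243 and 0.31 and -0.30 for 15386. The part of the dye in the shared sign was not tested. The *Ctsd* probes had the same sign on 4 of 12 arrays (0.04, 11097 minus 16223, p = 0.808), the *Serpinb2* probes on 7 of 12 (-0.03, 20370 minus 20722, p = 0.823) and the *Serpinh1* probes on 7 of 12 (-0.01, 2066 minus 3823, p = 0.909). For *Serpinb6a* the sign was shared on 2 of 12 arrays (-0.22, 5250 minus 8327, p = 0.546). The *Ctsf* probes shared their sign on 4 of 10 arrays and differed by -0.95 (932 minus 17584, p = 0.0195, where 0.00195 is the smallest possible). Without replicate 5, on which probe 17584 had its value of 4.24, they differed by -0.47 (p = 0.0391). These 6 p values are unadjusted. That the paired probes report the same transcript was not tested.

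**Figure D5:**
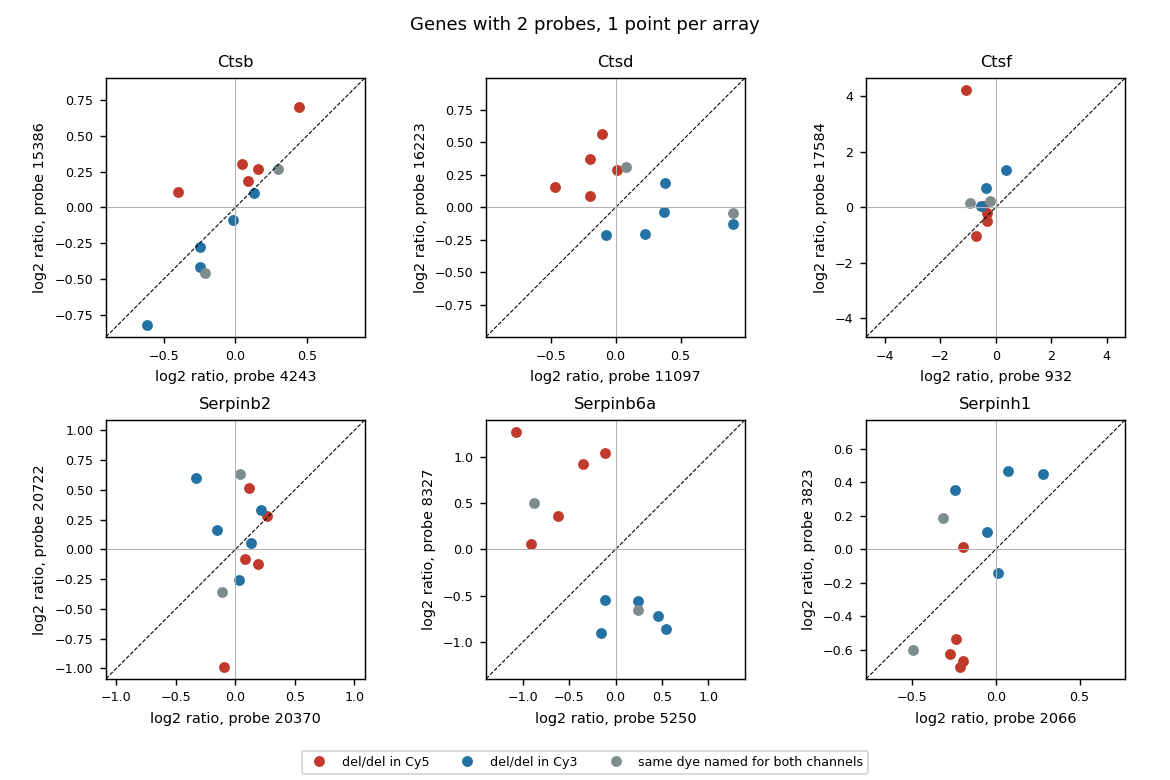
Log2 ratio of *Prdm6* del/del over wild type of the first probe (horizontal) against that of the second (vertical) for the 6 genes with a pair of probes, 1 point per array, with the dashed line marking equal values. Points follow the line for *Ctsb* (same sign on 11 of 12 arrays) and lie in opposite quadrants for *Serpinb6a* (same sign on 2 of 12).

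No probe annotated to a gene of the lists around these families passed, and the medians of the lists over probes lay between -0.08 and 0.04, against -0.00 over all probes. Of the 38 measured genes in the list of lysosomal genes other than cathepsins (enzymes, membrane proteins and proton pump subunits), 0 passed in either direction. Their 53 probes ran between -0.47 and 0.57 with a median of 0.04. The list does not hold *Laptm5*, a lysosomal protein counted with the leukocytes below, which was lower past the threshold. The study, however, lists *Man2b2*, a gene of this list, among its lower genes. Genes were matched by symbol here, and 8023 probes had none, so a changed lysosomal gene without an annotated probe would not be counted. Of 21 serine proteases that serpins bind, 0 passed (27 probes, -0.46 to 0.52, median -0.00), and of 5 serpin receptors and cofactors 0 passed (9 probes, -0.26 to 0.17, median -0.02). Of 22 other protease inhibitors 0 passed (31 probes, -0.46 to 0.18, median -0.08). At an unadjusted limma p under 0.05, where all probes had 6.41% lower and 4.64% higher, the lysosomal list had 2 of 53 probes lower (3.77%) and 2 higher (3.77%). The protease list had 1 of 27 lower (3.70%) and 2 higher (7.41%), the other inhibitors had 4 of 31 lower (12.9%) and 0 higher, and the receptors had 0 of 9 in either direction.

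Among the lists for cell types, those of macrophages and of globins had most of their probes lower at an unadjusted p under 0.05. Of 14 macrophage and leukocyte genes with 19 probes, 2 passed, both lower and each by its only probe in the list. Of all probes, 0.907% passed as lower. The 2 were *Lyz2*, the lysozyme of macrophages, at -0.47 (adjusted p = 0.0337), and *Laptm5*, a lysosomal protein of leukocytes, at -0.42 (adjusted p = 0.0294). At an unadjusted p under 0.05, 10 of the 19 probes of that list were lower (52.6%, against 6.41% of all probes) and 0 were higher. Its median was -0.27 and lay between -0.41 and -0.07 on single arrays, and neither gene passed with consecutive arrays averaged (adjusted p = 0.202 and 0.213). Both globin genes with tested probes under their symbols here, *Hba-a1* and *Hba-x*, were lower, at -1.42 and -1.25 for the probes with the smallest adjusted p, below 0 on 12 of 12 arrays, and all 7 probes so annotated were lower at an unadjusted p under 0.05. The study also lists *Hba-a2*, *Hbb-b2* and *Hbb-bh1* as lower, which had no tested probe under these symbols here. Of 18 visceral endoderm genes 1 passed: *Alb*, the plasma albumin, was lower with a mean of -1.33 (SD 0.69, below 0 on 11 of 12 arrays, adjusted p = 0.00109, but 0.0574 with consecutive arrays averaged). The 25 probes of that list had a median of 0.03, between -0.17 and 0.10 on single arrays, with 1 lower (4%) and 2 higher (8%) at an unadjusted p under 0.05. Among 6 trophoblast and decidua genes *Dcn*, the matrix proteoglycan decorin, was lower at -0.57 (adjusted p = 0.00367), the only one of 7 probes at an unadjusted p under 0.05. The part of these cell types in the values of the members was not tested.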

How the data were processed

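RNA of 6 *Prdm6* del/del yolk sacs at E10.5 was set against a pool of 6 wild type yolk sacs on 12 arrays. The authors deposited 1 normalized log2 ratio per probe and array; the normalization is not given in the sources used here, and the log2 scale and the direction were inferred from the values and the study's named genes. Spot intensities were not used here, so depth is unknown and precision rests on how many arrays there were. Between 20011 and 20501 values were present per array, with medians between -0.057 and 0.045, and 480 values lay beyond 8 in size. Of the probes, 12771 had 1 symbol, 0 several and 8023 none, updated by gene ID through GRCm38.p6.

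Probes with at least 8 values (20516) were fitted in R 4.3.3 with limma 3.58.1 (lmFit, eBayes), testing the mean against 0 with a dye term (del/del in Cy5 1, in Cy3 -1, replicates 8 and 9 0). Scripts were tested on simulated data. Members, lists and tests were chosen with earlier results of these data known. Named are members past the threshold, the 10 highest and 10 lowest members by mean, listed well known genes, and up to 4 passing genes per companion list; *Cst7*, *Cst9*, *Cst13*, *Cstl1*, *Serpina5*, *Serpina10* and *Serpina16* are given by range. Companion lists were lysosome without cathepsins, serine proteases, serpin receptors and cofactors, other protease inhibitors, visceral endoderm, macrophages and leukocytes, trophoblast and decidua, and globins. The relation of passing members to globin probes was planned and had no member to be computed on. Promoters came from RefSeq. Alternatives concerned the dye term and dyes, the arrays used, averaging of consecutive arrays, centring and scaling, the direction of Cy3 arrays, extreme values, the minimum of arrays, limma options, the fold threshold and averaging of probes.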

Additional observations from a re-analysis of the deposited data

How the results depend on the processing

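The count of members past the threshold was 0 in every alternative except leaving out 1 array, where it ranged from 0 to 1 (1 without replicate 12, *Ctsf* 932 at -0.46). The count of all probes, 220, was 1 on the arrays with del/del in Cy5 alone, 44 on those with del/del in Cy3 alone, 113 with consecutive arrays averaged, 0 with the Cy3 arrays turned in sign, 0 with limma's robust and trend options together, 132 at 1.5-fold, and 165 to 214 with 1 array left out. Over 30 settings 5 members kept the sign of their mean and 40 did not; without the settings of a single orientation and the turned Cy3 arrays, 27 settings remain, in which 32 kept it and 13 did not. By over 1 SD moved *Cstb* (-0.07) and *Ctsa* (-0.05) with the Cy3 arrays turned, and *Ctsf* 932 (-0.01) with probes averaged. The causes were not tested. All arrays belong to 1 group, so the replicate number could not be a block, and the labels do not tie arrays to yolk sacs; pairs were only presumed, as consecutive arrays. Left out in turn, an addition made after the data were seen, single arrays put the difference between the *Ctsf* probes at -1.09 to -0.47. Signal over background is not known, so dim spots could not be set apart.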
